A study of Mus musculus with 4 samples.

Results

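Known markers of the liver sinusoidal endothelium were followed in the livers of mice labelled as Pnpla7 knockout or wild type at 3 and 6 weeks of age. The 10 genes are Stab2, Lyve1, Clec4g, Fcgr2b, Kdr, Pecam1, Cdh5, Oit3, Dnase1l3 and Gpr182. They were listed by name as markers of this cell type, with earlier results of these data known, and were matched to the gene name printed in the scanner files. They make up 10 of 30026 genes on the array, and 13 of its 39429 probes read them. On each of the 4 arrays all 10 exceeded background clearly.

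The mice were of strain C57BL/6N and carried the genotype WT (Pnpla7+/+) or Pnpla7-/-. PNPLA7 hydrolyses lysophosphatidylcholine, and the series asks how the breakdown of phosphatidylcholine in liver returns choline to the methionine cycle. Each of the 4 groups (WT and Pnpla7-/-, each at 3 and 6 weeks) was 1 pool of RNA from 5 livers on 1 one-colour array, so an array gives the average of a pool and no spread between animals. The allele, the cells in which the gene was deleted, the sex of the animals and the hour of sampling are not given in the sources used here.

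Sinusoidal endothelial cells line the capillaries of the liver. Their wall is pierced by open pores and lacks a continuous basement membrane, so plasma reaches hepatocytes directly. The cells are also scavengers: receptors on their surface take up hyaluronan, modified proteins and small immune complexes from portal blood. Growth signalling through vascular endothelial growth factor, adhesion molecules shared with all blood vessels, and secreted factors that instruct neighbouring hepatocytes complete the profile by which they are recognised.

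What each array spot measured is a 60-base probe, and most genes had only 1. The first 30 bases of 8 probes are printed because the results turn on them: those of the 4 genes with the lowest ratio of Pnpla7-/- to WT at 6 weeks, that of Lyve1, whose level differed most with age, and all 3 of Stab2, which did not read the same direction. Positions are those the files give on mouse build mm9, 5′ to 3′ on the strand of the gene. An exon annotation of that build was not used here.
Cdh5, chr8:106668159-106668218, plus strand: acttattataagactctagttctcacagac
Oit3, chr10:58886254-58886313, minus strand: gactaagagcataactcatgatctcctaga
Clec4g, chr8:3716182-3716241, minus strand: tgtcagtctcaaaatcactgctctaaaccc
Fcgr2b, chr1:172890988-172891047, minus strand: acttctgtgagtcctgaaaccaacagacac
Lyve1, chr7:117994171-117994230, minus strand: cactttgtgtgcctttaacaaatacattat
Stab2, brightest probe, chr10:86303982-86304041, minus strand: taagcaccaaaggcaaggcttcatcccata
Stab2, middle probe, chr10:86381487-86381546, minus strand: ggcctctgtcatatgtgacctcacatacat
Stab2, dimmest probe, chr10:86455257-86455316, minus strand: tataatgcctgactctgggaacaagcaaac

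A signal is the processed intensity divided by the 75th percentile of its own array, and ratios are on the log2 scale. Each array had 43020 non-control spots, of which 66.7% to 71.4% were flagged well above background. With 1 array per group no ratio has a replicate check. The error given is the median SD between spots of one probe, taken from probes with 10 spots, which came to 0.0952 for a log2 ratio of KO to WT at 3 weeks and 0.118 at 6 weeks and leaves out any difference between pools. The 4 arrays shared 1 slide, and the place of an array on it cannot be told apart from its group. The only probe for Pnpla7 read 7.54 in WT and 6.70 in the pool labelled KO at 3 weeks, and 9.65 and 4.42 at 6 weeks. Since the deleted part is not given, neither pool's genotype is settled by this probe, and "KO" below means the pool labelled so.

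At 3 weeks the endothelial markers lay close together in the KO and WT pools, and at 6 weeks most of them were lower in the KO pool. Over the 10 members the log2 ratio had a median of 0.08 at 3 weeks (SD among genes 0.163, range -0.18 to 0.37) against 0.00268 over 21143 genes measured. At 6 weeks it was -0.55 (SD among genes 0.409, range -1.07 to 0.27) against 0.05 over 21332 genes. That median is a level 1.47-fold lower, and 8 of the 10 ratios were below 0, where 44.4% of all genes were. In whole liver, fewer endothelial cells and less RNA per cell cannot be told apart.

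**Figure D1:**
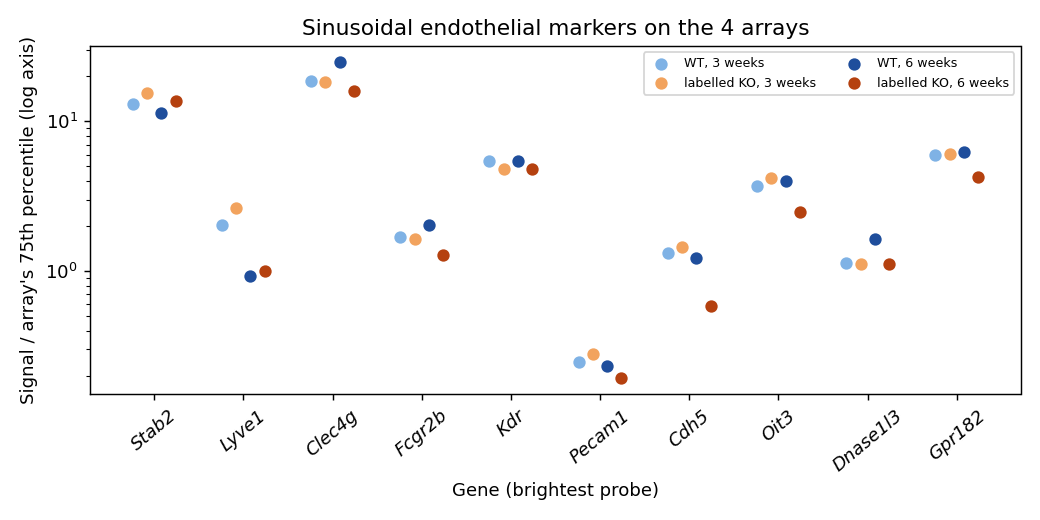
Signal of each of the 10 genes (brightest probe) on the 4 arrays, as a multiple of the array's 75th percentile and on a log axis; each point is 1 array of 1 pool of 5 livers. Cdh5, Oit3, Clec4g, Fcgr2b, Gpr182 and Pecam1 have their lowest point in the KO pool at 6 weeks, and Lyve1 has both 6-week points below both 3-week points.

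Among the scavenger receptors, Stab2, stabilin-2, an endocytic receptor for hyaluronan, had signals of 13.0 in WT and 15.4 in KO at 3 weeks, and of 11.3 and 13.6 at 6 weeks. KO was above WT at both ages, with log2 ratios of 0.25 and 0.27, each more than 2 times the spot SD. The other Stab2 probes gave 0.13 and -0.11 (middle probe) and 0.43 and 0.16 (dimmest probe), so the direction at 6 weeks differed between probes of this gene. On its brightest probe, Stab2 was not lower in KO at 6 weeks, unlike most members.

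Lyve1, a hyaluronan receptor of sinusoidal and lymphatic endothelium, had signals of 2.04 in WT and 2.63 in KO at 3 weeks, and of 0.924 and 1.01 at 6 weeks. The KO pool was higher by a log2 ratio of 0.37 at 3 weeks. At 6 weeks the ratio was 0.12, about the spot SD. Both pools at 6 weeks lay below both at 3 weeks. Of the 5 genes measured on the lymphatic list, 4 had lower signals at 6 than at 3 weeks in WT and 5 in KO. Their median log2 ratios with age were -0.67 and -0.27. Reln of this list is also on the stellate cell list, and Flt4 on that of other sinusoidal genes. The part of the lymphatic list in the Lyve1 result was not tested.

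Clec4g, a C-type lectin known as LSECtin, had signals of 18.5 in WT and 18.4 in KO at 3 weeks, and of 25.0 and 15.8 at 6 weeks. At 3 weeks the pools differed by less than the spot SD. At 6 weeks KO was 1.58-fold lower, a log2 ratio of -0.66, and the WT pool at 6 weeks was the highest of the 4. From 3 to 6 weeks the log2 ratio was 0.43 in WT and -0.22 in KO, the latter -0.41 with quantile normalization and -0.40 with normexp before it.

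Fcgr2b, the inhibitory receptor for IgG by which sinusoidal cells clear small immune complexes, was read by 10 spots on each array. Its signals were 1.69 in WT (SD between spots 0.0577 on the log2 scale) and 1.64 in KO (0.0759) at 3 weeks, and 2.03 in WT (0.0627) and 1.29 in KO (0.169) at 6 weeks. The log2 ratio was -0.04 at 3 weeks and -0.66 at 6 weeks. The KO array at 6 weeks had the widest spread between spots, and the 6-week difference was still larger than that spread. B cells and macrophages also express Fcgr2b. At 6 weeks 5 of 6 B cell markers and 9 of 10 Kupffer cell markers were also below 0. From 3 to 6 weeks in WT the log2 ratio of Fcgr2b was 0.27, with medians of -0.35 for B cell and 0.00294 for Kupffer cell markers. The part of these cells in the Fcgr2b values was not tested.

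Kdr, the main signalling receptor for vascular endothelial growth factor on endothelium, showed about the same ratio at both ages on its brightest probe only. Its brightest probe had signals of 5.43 in WT and 4.80 in KO at 3 weeks, and of 5.40 and 4.84 at 6 weeks, with log2 ratios of -0.18 and -0.16. The second probe, with 10 spots, gave 4.32 and 4.24 at 3 weeks and 4.74 and 4.23 at 6 weeks, with log2 ratios of -0.02 and -0.16. Neighbours in the order of the 4 arrays differed by less than 2 spot SDs throughout for the brightest probe.

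The junction proteins of all endothelium differed from one another. Cdh5, vascular endothelial cadherin, which holds endothelial cells together, had signals of 1.33 in WT and 1.45 in KO at 3 weeks, and of 1.23 and 0.585 at 6 weeks. The other 3 arrays lay within 0.24 on the log2 scale and the KO pool at 6 weeks stood 2.10-fold below WT, a log2 ratio of -1.07, the lowest of the 10 members. Pecam1, an adhesion molecule of endothelium and platelets, had signals of 0.246 and 0.281 at 3 weeks and of 0.233 and 0.193 at 6 weeks. Its log2 ratios of 0.19 and -0.27 were each about 2 spot SDs. Cdh5 and Pecam1 each had 1 spot per array, so the spot SD is that of other probes. Platelet markers, which share Pecam1, had a summed signal of 1.46 in WT and 1.89 in KO at 3 weeks and of 0.483 and 0.686 at 6 weeks, and their part in the Pecam1 values was not tested.

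The remaining genes encode secreted or surface proteins by which sinusoidal cells are recognised. Oit3, a zona pellucida domain protein, had signals of 3.70 in WT and 4.20 in KO at 3 weeks, and of 4.02 and 2.48 at 6 weeks. Its log2 ratios were 0.18 and -0.69, and the KO pool at 6 weeks lay below the other 3, which were close together. Gpr182, an atypical chemokine receptor, showed the same arrangement, with 5.93 and 6.08 at 3 weeks and 6.20 and 4.22 at 6 weeks and log2 ratios of 0.04 and -0.56. Dnase1l3, a secreted nuclease that degrades DNA in chromatin, had signals of 1.14 and 1.11 at 3 weeks and of 1.64 and 1.12 at 6 weeks. Its log2 ratios were -0.03 and -0.55, but here the WT pool at 6 weeks stood above the other 3 and the KO pool at 6 weeks was level with both pools at 3 weeks.

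**Figure D2:**
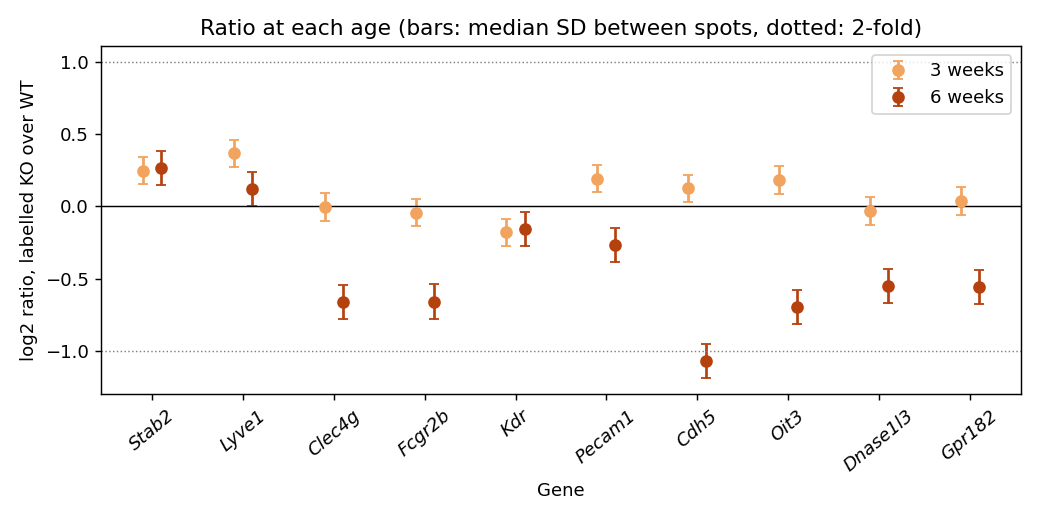
Log2 ratio of KO over WT for each gene at 3 weeks (light) and 6 weeks (dark); bars are the median SD between spots of one probe at that age and dotted lines mark 2-fold. At 6 weeks Cdh5 (-1.07) is past 2-fold lower, Oit3, Clec4g, Fcgr2b, Gpr182 and Dnase1l3 lie between -0.69 and -0.55, and Stab2 and Lyve1 lie above 0.

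Counted by size, 0 of 10 members were at least 2-fold higher in KO at 3 weeks, where 2.95% of genes were, and 0 were at least 2-fold lower, where 2.98% were. At 6 weeks 1 member, Cdh5, was at least 2-fold lower (4.55% of genes), and 0 were at least 2-fold higher (6.51%). The count of 1 in 10 rests on a ratio just past the line. At 1.5-fold, 4 members were lower (Clec4g, Cdh5, Oit3 and Fcgr2b; 10.4% of genes) and 0 were higher (12.5%). The KO pool at 6 weeks had the lowest signal of the 4 arrays for 6 members (27.2% of genes).

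From 3 to 6 weeks in WT the 10 markers had a median log2 ratio of 0.03 against 0.00812 over 20987 genes. Of the members 5 were above 0 and 5 below 0, where 48.85% of all genes were. Lyve1 alone was at least 2-fold lower, at -1.14 or 2.21-fold (5.9% of genes), and 0 members were at least 2-fold higher (3.67%). Dnase1l3, at 0.53, and Clec4g, at 0.43, had the highest ratios with age in WT. In KO the median was -0.44 against 0.06 over 21669 genes, with 8 members below 0, where 44.6% of all genes were. Lyve1, at -1.39 or 2.62-fold, and Cdh5, at -1.31, were at least 2-fold lower (6.35% of genes), and 0 members were at least 2-fold higher (6.1%). Lyve1 was thus lower at 6 weeks in 2 pairs of arrays that share no sample. Cdh5 had a WT ratio of -0.11, within 2 spot SDs of 0.

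The log2 ratio at 6 weeks minus that at 3 weeks had a median of -0.55 over the members and 0.06 over 18871 genes, with a spot SD of 0.152. It was below 0 for 8 of 10 members, where 43.0% of all genes were, and lowest for Cdh5 (-1.19), Oit3 (-0.88) and Clec4g (-0.65). For Stab2 and Kdr it was 0.02, and both turned below 0 under quantile normalization, with or without normexp, and with all probes averaged, from -0.16 to -0.08 for Stab2 and from -0.06 to -0.02 for Kdr. No member reached a 4-fold difference between the ages, which 0.837% of genes did upward and 0.684% downward.

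limma was fitted with age and genotype over the 4 arrays and has 1 residual degree of freedom. It takes a gene's spread from the difference between the ages, shrunk toward a prior fitted over all genes. After Benjamini-Hochberg adjustment it called 0 of 22648 genes (0%) for genotype, where 1007 had an unadjusted p under 0.05, and 0 (0%) for age, where 2308 had. The members' adjusted p for genotype ran from 0.914 to 0.977. Cdh5 had a genotype effect of -0.47 (SE 0.403) and Stab2 one of 0.26 (SE 0.143). For age, Lyve1 had the largest effect of the members, -1.27 (SE 0.163, limma adjusted p = 0.426). Averaging over ages sets the 3-week and 6-week ratios against each other, so this fit does not address the 6-week difference alone.

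Beyond the 10 members, 75 further genes were followed on lists of sinusoidal, pan-endothelial, signalling, angiocrine, large-vessel and lymphatic genes. These lists are not confined to endothelial cells, since Hgf and Reln are also on the stellate cell list. Over the 75 genes the median log2 ratio was 0.11 at 3 weeks and -0.24 at 6 weeks. At 3 weeks 55 of 73 measured genes were above 0 and 18 below 0, where 49.4% of all genes were. At 6 weeks 52 of 72 were below 0, where 44.4% of all genes were. At 3 weeks 3 of 73 were at least 2-fold higher in KO (2.95% of all genes) and 0 lower (2.98%). At 6 weeks 1 of 72 was at least 2-fold lower (4.55%) and 0 higher (6.51%), so these counts were near or below the shares over all genes. The shift at 6 weeks was thus shared in direction with the members and smaller in median.

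Of 12 other sinusoidal genes, 11 were measured and 10 were below 0 at 6 weeks, with a median of -0.28. Mrc1, the mannose receptor, had signals of 4.01 in WT and 4.05 in KO at 3 weeks and of 4.34 and 2.96 at 6 weeks, a log2 ratio of -0.55. Il1a, interleukin 1 alpha, was the gene past 2-fold, at -1.09, with signals of 0.0420 in WT and 0.0197 in KO at 6 weeks. It was dim: on that KO array the platelet gene Ppbp, at 0.0136, was not well above background. Wnt2, a sinusoidal Wnt ligand, was the exception at 0.12. Stab1, the close relative of Stab2, was lower at 6 weeks by a log2 ratio of -0.42, the opposite direction to the brightest Stab2 probe.

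All 20 pan-endothelial genes were measured. At 6 weeks 19 of 20 were below 0 (44.4% of all genes), with a median of -0.36. At 3 weeks 16 were above 0 and 4 below 0 (49.4% of all genes), with a median of 0.18. Cldn5, a tight junction claudin, and Adgrl4, an adhesion receptor of endothelium, were lowest at 6 weeks, at -0.63 and -0.62. Nos3, the endothelial nitric oxide synthase, and Erg, an ETS factor that maintains endothelial identity, stood highest, at 0.02 and -0.01.

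In the signalling list, which spans ligands and receptors of the vascular endothelial growth factor, angiopoietin and Notch pathways, 16 of 22 genes were below 0 at 6 weeks, with a median of -0.16 and none past 2-fold. Dll4, the Notch ligand of endothelium, had the lowest ratio at -0.75, and Nrp1, a co-receptor, followed at -0.47. Notch1 and Angpt1 were highest, at 0.60 and 0.57. At 3 weeks Angpt2, which opposes angiopoietin 1 at its receptor, was 1.60 higher on the log2 scale, with signals of 0.156 in WT and 0.473 in KO, and of 0.119 and 0.0937 at 6 weeks. The 3-week KO array alone was high for it.

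Among 11 angiocrine factors, which endothelium and its neighbours send to other liver cells, the median was 0.26 at 3 weeks and -0.10 at 6 weeks. Kitl, stem cell factor, was highest at 3 weeks, at 1.86, with signals of 0.0564 in WT and 0.204 in KO at that age and of 0.162 and 0.192 later. The 3-week WT array alone was low for it. Later, Hgf, hepatocyte growth factor, which is also on the stellate cell list, stood at -0.71. Edn1, endothelin 1, stood at 0.93 on dim signals of 0.0150 in WT and 0.0285 in KO. Genes of continuous and large-vessel endothelium had no common direction at 6 weeks, with 6 of 12 measured genes below 0 and a median of -0.04. Plvap, the diaphragm protein of fenestrae and caveolae, stood at -0.62, Ly6a at -0.68 and Vwa1 at 0.87. Vwa1 was dim, with signals of 0.0289 in WT and 0.0527 in KO at 6 weeks. Apln, apelin, was 1.95 higher in KO at 3 weeks and not well above background in either pool at 6 weeks. Of 6 lymphatic genes 5 were measured, with a median of 0.11 at 6 weeks and Mmrn1, a multimerin, at 0.96.

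**Figure D3:**
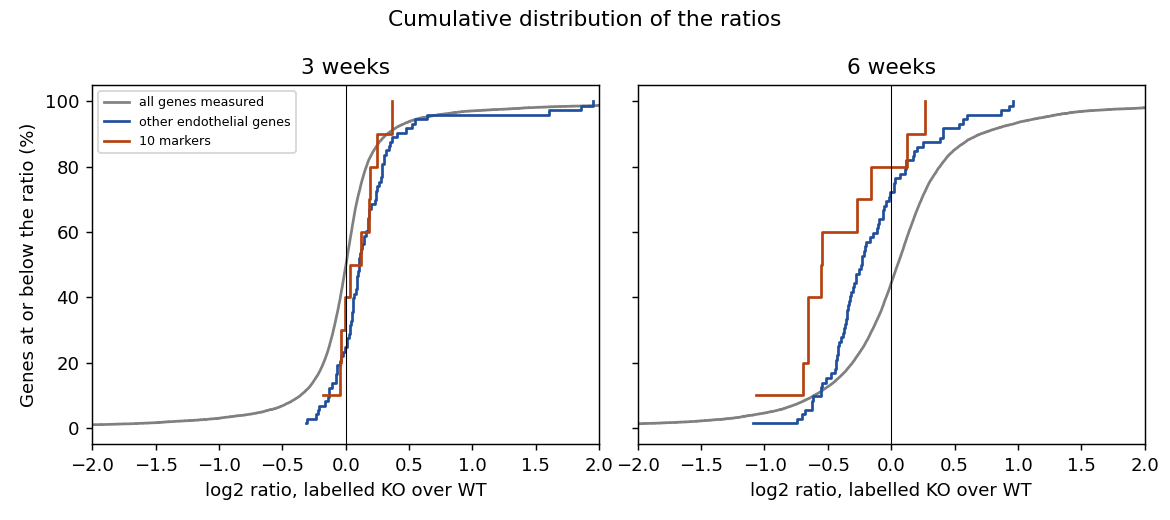
Percentage of genes at or below each log2 ratio of KO over WT at 3 weeks (left) and 6 weeks (right). Lines are all genes measured (grey), the further genes of the endothelial lists (blue) and the 10 markers (red), drawn from -2 to 2. At 6 weeks the red and blue lines lie to the left of the grey one over most of the range, with medians of -0.55, -0.24 and 0.05.

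Several lists of other cells also had lower medians in KO at 6 weeks, and their part in the result was not tested. Kupffer cell markers had a median of -0.11 on the log2 scale at 3 weeks. At 6 weeks it was -0.86, when 9 of 10 were below 0 and Adgre1, Folr2 and Clec4f stood at -1.55, -1.31 and -1.06. Their summed signal was 84.2 in WT and 76.5 in KO at 3 weeks, and 74.7 and 41.1 at 6 weeks. Stellate cell markers had a median of -0.35 at 6 weeks, with 8 of 10 below 0, but Des, desmin, which muscle also expresses, was higher in KO by 1.99 at 3 weeks and 2.35 at 6 weeks. The summed signal of the stellate list was 125 and 134 at 3 weeks and 103 and 90.7 at 6 weeks. The 6 B cell markers had a median of -0.35, with Blnk at -1.19, and a summed signal of 1.46, 1.28, 1.38 and 0.985 in the same order. The summed signal of the 10 endothelial markers was 53.0 and 56.0 at 3 weeks and 58.0 and 45.2 at 6 weeks. Kupffer cell markers were thus lower than the sinusoidal markers in median at 6 weeks, and both lists were close to level at 3 weeks.

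The tissue was labelled liver, and all 10 hepatocyte markers exceeded background on every array. At 6 weeks 8 of 10 were above 0, with a median log2 ratio of 0.19, and their summed signal was 1579 and 1553 at 3 weeks and 1572 and 1726 at 6 weeks. Proliferation genes had a median of -0.53 at 3 weeks and -2.06 at 6 weeks, and all 9 measured were below 0 at both ages. In WT all 9 were also at least 2-fold lower at 6 than at 3 weeks (5.9% of all genes). Skeletal muscle genes stood apart in the other direction. All 11 were at least 2-fold higher in KO at 3 weeks (2.95% of all genes) and 10 at 6 weeks (6.51%). Their summed signal was 0.648 and 56.2 at 3 weeks and 1.32 and 37.2 at 6 weeks. At 3 weeks 6 of the 11 and at 6 weeks 4 were not well above background in WT, so these folds include lower bounds. Muscle has capillaries of its own that express Pecam1, Cdh5 and Kdr, and the muscle genes were high in the KO pool at both ages, and their part in these 3 genes was not tested. Platelet markers had only 2 measured genes at 6 weeks, at 0.63 for Pf4 and -0.12 for Itga2b. The 4 cholangiocyte markers on the array had a median of -0.11, and of 4 adipose genes 3 were measured, from -0.57 to 0.62.

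**Figure D4:**
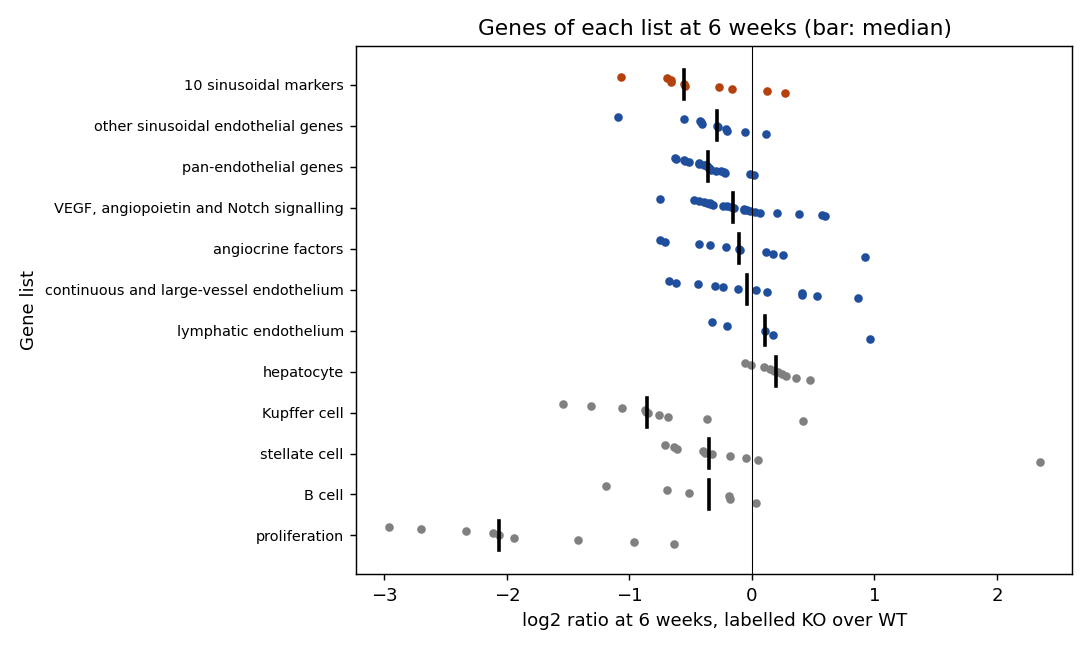
Log2 ratio of KO over WT at 6 weeks for each measured gene (points) of the 10 markers, 6 further endothelial lists and 5 lists of other cells or of proliferation, with the median of each list as a black bar. The sinusoidal markers have a median of -0.55, between pan-endothelial genes (-0.36) and Kupffer cell markers (-0.86), while hepatocyte markers lie mostly above 0.

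The members' median profile, centred per gene, was 0.06 in WT and 0.17 in KO at 3 weeks and 0.17 and -0.32 at 6 weeks. Gpr182 lay nearest to it, at a root mean square distance of 0.0457 over the 4 arrays, and Lyve1 farthest, at 0.586. Among 6595 other named genes with a signal above the 75th percentile, the 8 nearest were Plod3, Sh3bp5l, Scrn3, C1qtnf12, Trnau1ap, Mrpl38, Rcn1 and Plcxd2, at distances from 0.0240 to 0.0349. None of the 8 was on an endothelial list, but how many of the 6595 were on such a list was not counted. Plod3, a collagen-modifying enzyme, had signals of 1.76 and 1.88 at 3 weeks and of 1.90 and 1.35 at 6 weeks. Of the 6595 genes, 1229 (18.6%) lay as near to the profile as the median member did.

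Promoters were at hand for 4 of the 10 members, and they happen to include a pair that was lower in KO at 6 weeks (Clec4g and Fcgr2b) and a pair that was not by the same size (Stab2 and Kdr). The 250 bases before the gene's start, from RefSeq on build GRCm38.p6, are printed 5′ to 3′ on the strand of the gene, which is the minus strand for all 4. Capitals mark matches on either strand to GGAAG, which is 1 base longer than GGAA, the core bound by ETS factors of endothelium. Other GGAA sites in these windows are neither marked nor counted. Capitals also mark AGATAA, a motif of GATA factors, and likewise TATAAA, the TATA box. In the Clec4g window 2 matches to GGAAG overlap by 1 base.
Clec4g, chr8:3720652-3720901: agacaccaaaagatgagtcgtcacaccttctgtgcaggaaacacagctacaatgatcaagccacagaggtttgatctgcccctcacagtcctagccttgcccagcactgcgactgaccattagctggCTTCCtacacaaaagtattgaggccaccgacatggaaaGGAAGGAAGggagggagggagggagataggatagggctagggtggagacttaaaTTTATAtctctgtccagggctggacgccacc
Fcgr2b, chr1:170976072-170976321: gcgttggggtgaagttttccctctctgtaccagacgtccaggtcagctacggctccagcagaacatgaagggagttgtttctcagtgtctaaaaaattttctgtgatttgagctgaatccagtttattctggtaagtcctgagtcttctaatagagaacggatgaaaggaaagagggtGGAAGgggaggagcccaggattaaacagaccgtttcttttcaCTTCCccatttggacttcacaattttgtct
Stab2, chr10:87007943-87008192: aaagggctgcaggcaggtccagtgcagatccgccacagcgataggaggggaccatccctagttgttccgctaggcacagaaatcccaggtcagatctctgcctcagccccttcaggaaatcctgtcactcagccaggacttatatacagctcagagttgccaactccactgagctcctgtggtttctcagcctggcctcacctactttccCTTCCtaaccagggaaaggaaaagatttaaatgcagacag
Kdr, chr5:75978456-75978705: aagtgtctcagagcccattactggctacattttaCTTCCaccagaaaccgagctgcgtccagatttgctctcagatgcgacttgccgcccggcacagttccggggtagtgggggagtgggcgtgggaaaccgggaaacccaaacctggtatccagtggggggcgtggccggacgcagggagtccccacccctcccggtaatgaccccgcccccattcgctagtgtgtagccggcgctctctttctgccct
GGAAG matched 3 times in the Clec4g window, 2 times in that of Fcgr2b and 1 time each in those of Stab2 and Kdr, and 64.1% of 32851 promoter windows of this length hold it. TATAAA matched 1 time, in Clec4g (12.4% of windows), and AGATAA matched in none of the 4 (9.99% of windows). With 4 windows these matches are a description only.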

How the data were processed

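Per the submitters' processing notes, the arrays were read with Agilent Feature Extraction 11.5.1.1. The deposited intensity had spatial and multiplicative detrending within each array, per the file headers. Outlier and background flags are deposited as other values, 0 or 1. The authors' value table is a ratio, the intensity over the array's 75th percentile, which it matched to within 0.02%. Here log2 of the intensity was taken, the array's 75th percentile subtracted, flagged outlier spots left out (189 to 252 per array), and spots of one probe averaged. Of 39429 probes, 31456 were named through a RefSeq table (GRCm38.p6) and 7973 kept the name in the file. The brightest probe stood for a gene. A gene entered a comparison where well above background on at least 1 of its arrays; with 1 dim array the ratio is a bound against the lowest signal well above background there. Differences between ages needed all 4 arrays. Python 3.11.15, numpy 2.4.6, pandas 2.3.3, R 4.3.3 and limma 3.58.1 were used, the fit being tested on simulated data.

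The members, the gene lists and the naming rule were chosen with earlier results of these data known. The rule takes all members, the 2 highest and 2 lowest genes of each endothelial list per comparison, up to 3 genes of each other list, and the 8 nearest profiles. Of the genes it takes, those at the ends of a list at 6 weeks and a few at 3 weeks are described. Alternatives were other background correction and scaling, all probes averaged, outlier spots kept, the authors' table, stricter or no filter, and other fold thresholds. The number of arrays limits the precision.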

Additional observations from a re-analysis of the deposited data

Results flagged for a closer look

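Cdh5, Oit3 and Pecam1 had a KO to WT ratio above 0 at 3 weeks and below 0 at 6 weeks, each beyond the SD between spots. The change of the log2 ratio from 3 to 6 weeks was -1.19 for Cdh5, -0.88 for Oit3 and -0.46 for Pecam1. With 1 array per group this difference between the ages was not tested by itself.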

How the results depend on the processing

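The median log2 ratio of the 10 members kept within the spot SD under all 8 alternatives to the background correction, scaling, probe choice, outlier flags, source table and filter. It ran from 0.05 to 0.08 at 3 weeks, from -0.59 to -0.55 at 6 weeks, from -0.44 to -0.38 with age in KO, and from -0.56 to -0.55 for the difference between ages; with age in WT it lay between -0.01 and 0.07, on both sides of 0. Counts of members past the threshold moved by over 1.5 times with the fold threshold and with none of those 8. At 1.5-fold 4 members differed at 6 weeks, and at the matching 2.25-fold 1 member, Cdh5, differed between the ages. At 3-fold 0 members differed at 6 weeks, 0 with age in WT and 0 with age in KO. Averaging all probes turned the ratio of Stab2 with age in WT from -0.19 to 0.0218 and brought its KO to WT ratio at 6 weeks to 0.10. The number of members below 0 with age in KO was 9 under quantile normalization and 10 with normexp before it, and for the difference between ages 10 under both and with all probes averaged. Quantile normalization set Clec4g at 6 weeks to -0.79, and to -0.78 with normexp before it. limma called 0 members for genotype under all 5 alternatives to the fit, including 1 with a trend in the variance prior, which called 4 other genes. With 1 array per group no sample could be left out.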
